A study of Homo sapiens with 12 samples.

Results

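Transcripts of the NF-kB transcription factor subunits and of the proteins that restrain them were followed in PANC-1, an established human cell line derived from a pancreatic carcinoma. The members were chosen by name: the 5 subunit genes RELA, NFKB1, REL, NFKB2 and RELB, the inhibitors NFKBIA, NFKBIB and NFKBIE, the nuclear inhibitor family member NFKBIZ, and TNFAIP3. They are 10 of the 57773 genes in the count table, and all 10 passed the filter on low counts. The choice was made with earlier results of these data known. RNA was sequenced from 4 groups of 3 libraries after 24 h with chaetocin and MLN8237 together (30 nM and 90 nM), with 30 nM chaetocin alone, with 90 nM MLN8237 alone, or with the vehicle DMSO. Chaetocin is a fungal metabolite used as an inhibitor of histone lysine methyltransferases, and MLN8237, also called alisertib, blocks Aurora A, a kinase of mitosis. The sample labels of the combination spell the second compound MLN3237, while their treatment protocol gives MLN8237, and it was read as MLN8237. PANC-1 is a single cell line, all groups share that background, and nothing in the labels says that the 3 libraries of a group were grown as separate cultures; the p-values below therefore compare groups against library-to-library variation that could be technical.

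NF-kB is a family of dimeric transcription factors. In resting cells the dimers are held in the cytoplasm by IkB proteins, and signals from receptors such as those for tumour necrosis factor activate the IkB kinase complex, which marks the IkB proteins for degradation and frees the dimers to enter the nucleus. The canonical branch uses mainly RELA, REL and the p50 product of NFKB1, and the non-canonical branch uses RELB and the p52 product of NFKB2. Several of the genes that NF-kB activates encode its own brakes, among them NFKBIA and TNFAIP3, so the pathway limits itself. Nuclear location and DNA binding are set at the protein level and were not measured by these libraries.

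The stretches upstream of 4 members are shown because they hold a match to the kappa B consensus, the DNA element to which NF-kB binds. The transcript responses of these 4 members were not all alike. They are RefSeq promoter sequences on GRCh38.p14, given on the strand of the gene, without bases that overlap an annotated exon. Capitals mark a match of 10 letters to the kappa B consensus on either strand. The NFKBIA stretch is chr14:35404750-35404999 on the minus strand, the NFKBIZ stretch chr3:101827740-101827989 on the plus strand, the NFKB2 stretch chr10:102395455-102395692 on the plus strand, and the NFKBIB stretch chr19:38899863-38899951 on the plus strand.
NFKBIA: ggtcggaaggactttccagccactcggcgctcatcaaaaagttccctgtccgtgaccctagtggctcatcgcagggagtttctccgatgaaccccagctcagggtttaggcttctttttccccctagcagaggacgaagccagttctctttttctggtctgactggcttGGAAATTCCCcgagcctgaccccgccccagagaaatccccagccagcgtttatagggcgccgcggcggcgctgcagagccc
NFKBIZ: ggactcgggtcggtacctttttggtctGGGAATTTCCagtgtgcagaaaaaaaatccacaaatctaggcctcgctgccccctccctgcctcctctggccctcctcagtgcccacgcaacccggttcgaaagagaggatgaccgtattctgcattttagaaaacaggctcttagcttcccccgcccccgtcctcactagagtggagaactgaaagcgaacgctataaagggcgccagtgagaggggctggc
NFKB2: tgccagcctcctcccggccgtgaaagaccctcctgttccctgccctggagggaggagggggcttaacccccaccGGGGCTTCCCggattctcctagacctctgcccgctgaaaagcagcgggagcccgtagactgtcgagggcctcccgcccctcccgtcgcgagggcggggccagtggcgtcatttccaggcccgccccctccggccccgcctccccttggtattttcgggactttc
NFKBIB: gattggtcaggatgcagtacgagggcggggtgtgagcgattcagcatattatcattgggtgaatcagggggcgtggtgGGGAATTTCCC

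The match began 81 bases before the start in NFKBIA, 223 bases before it in NFKBIZ and 176 bases before it in NFKB2, where the same 10 bases match on both strands. In NFKBIB, 1 match on each strand overlapped, and they began 28 and 27 bases before the start. Of the 8 members in the promoter table, 7 held a match within 250 bases upstream of at least 1 listed start, and RELA held none. RELB and NFKBIE had no entry. The matches of NFKB1, REL and TNFAIP3 were not within the longest stretch free of annotated exons, so these genes are not printed. NFKB2 and NFKBIZ held further matches outside such stretches, counted on either strand. Another listed start had 4 in NFKB2 and 2 in NFKBIZ. The 250 bases upstream of the printed NFKB2 start held 3, of which 2 are shown. Over all listed promoters 11.8% of 27305 genes held such a match, and 9.96% of 35116 windows, against 9 of the members' 14 windows. A match is a run of letters and not a measured binding site, and the 4 printed genes include 2 that fell with the combination and with chaetocin (NFKBIA and NFKB2), 1 that rose with the combination (NFKBIZ) and 1 that passed no test against vehicle (NFKBIB).

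The libraries held 49439795 to 63747510 counted reads, and the members had between 205 reads (NFKBIZ) and 14225 reads (NFKBIB) per library. The epithelial markers KRT7, KRT8, KRT18, KRT19 and EPCAM were all detected, with a summed level (CPM, counts scaled to library size) of 2020 to 2250 in the combination, 2270 to 2490 with chaetocin, 4220 to 4600 with MLN8237 and 3920 to 4470 in vehicle. KRT8, KRT18, KRT19 and EPCAM were lower in both chaetocin-containing groups than in the other two. KRT7 was not, at 5.18 CPM in the combination, 5.84 CPM with chaetocin, 5.37 CPM with MLN8237 and 4.01 CPM in vehicle. KRT8, the most abundant of the 5, averaged 1120 CPM in the combination, 1250 CPM with chaetocin, 2220 CPM with MLN8237 and 2220 CPM in vehicle. Of 5 immune markers only CD68 exceeded 1 CPM on average, the fibroblast and erythroid markers were below 1 CPM, and of the endothelial markers CDH5 was near 0. VWF averaged 3.27 CPM in the combination, 1.43 CPM with chaetocin and 0.0267 CPM with MLN8237, and was at 0 in vehicle. The part of these marker differences in the results was not tested.

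The libraries also differed in how their counts depended on gene length, and the members span 2324 bases (NFKBIB) to 11255 bases (REL). In MLN8237 replicate 3 the median log2 difference from vehicle was 0.39 over genes of up to 3000 bases and -0.24 over genes above 5000 bases, against 0.03 and -0.03 in MLN8237 replicate 1. In combination replicate 1 the same medians were -0.22 and -0.05. In each treated group replicate 3 was the lowest library of NFKB1, REL and TNFAIP3 and the highest of RELB, NFKBIA and NFKBIB. Neither held for RELA, NFKB2, NFKBIE or NFKBIZ. Not every member value that follows the length order is pointed out again below. The part of the length trend in the member values was not tested beyond the length-adjusted fits given beside the calls they change.

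Levels compared between genes are given per length, as TMM-scaled RPKM (reads scaled for library size and gene length), computed from the counts and gene lengths in the table. The order between genes, and the shares of summed RPKM below, depend on these lengths, and other lengths were not tried. Transcripts of NFKBIB, which encodes IkB beta, were the most abundant of the 10 in every group, at 89.2 ± 13.6 RPKM in the combination, 84.6 ± 10.7 with chaetocin, 84.9 ± 14.1 with MLN8237 and 75.3 ± 3.08 in vehicle (mean ± SD, n = 3 here and below). In vehicle the order below it was NFKB2 (31.6 RPKM), NFKBIA (24.9), RELA (24.5), NFKBIE (13.5), NFKB1 (9.49), RELB (9.26), TNFAIP3 (3.06), REL (1.64) and NFKBIZ (0.883). The vehicle libraries of NFKBIA and RELA overlapped, as did those of NFKB1 and RELB, and the other neighbours in that order did not. With chaetocin the order was RELA (25.6 RPKM), NFKB2 (21.7), NFKBIA (13.6), NFKB1 (8.50), NFKBIE (7.84), RELB (5.90), REL (1.77), TNFAIP3 (1.42) and NFKBIZ (0.892), so that RELA stood above NFKB2 and only REL and TNFAIP3 overlapped among those neighbours. In the combination it was RELA (26.5 RPKM), NFKB2 (23.3), NFKBIA (11.4), NFKB1 (8.60), NFKBIE (8.52), RELB (6.23), REL (2.17), TNFAIP3 (1.83) and NFKBIZ (1.34). There NFKB1 and NFKBIE overlapped, as did NFKBIE and RELB, REL and TNFAIP3, and TNFAIP3 and NFKBIZ. With MLN8237 it was NFKB2 (31.2 RPKM), NFKBIA (28.7), RELA (23.5), NFKBIE (17.1), RELB (10.8), NFKB1 (8.60), TNFAIP3 (2.78), REL (1.30) and NFKBIZ (0.831). Neighbours overlapped from NFKB2 down to NFKBIE, and for RELB and NFKB1.

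**Figure D1:**
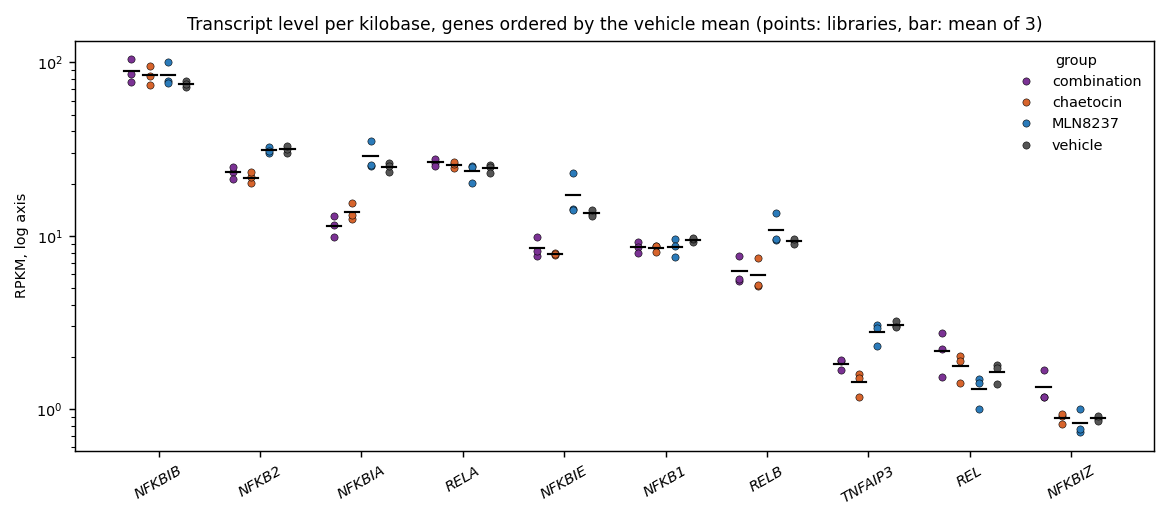
Transcript level per kilobase (RPKM, log axis) of the 10 genes in each library of the 4 groups, with the group mean as a bar; genes run from the highest vehicle mean to the lowest. NFKBIB lies highest in all groups, and NFKB2, NFKBIA, NFKBIE, RELB and TNFAIP3 lie lower in the combination and chaetocin libraries than in the MLN8237 and vehicle libraries.

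The shares among the subunits and among the cytoplasmic inhibitors set the chaetocin-containing groups apart from the other two. RELA made up 39.1 to 40.3% of the summed RPKM of the 5 subunits in the combination and 39.8 to 40.8% with chaetocin, against 27.6 to 33.4% with MLN8237 and 29.9 to 34.0% in vehicle. NFKBIA made up 9.52 to 11.8% of the summed RPKM of NFKBIA, NFKBIB and NFKBIE in the combination and 12.5 to 13.2% with chaetocin, against 21.5 to 22.3% with MLN8237 and 21.5 to 22.2% in vehicle. The ranges of both chaetocin-containing groups therefore lay clear of the vehicle range. These shares are descriptions, since they combine members whose own tests follow.

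Against vehicle, 5 of the 10 members fell and none rose with chaetocin, and the same 5 fell and 1 rose with the combination. The genes that fell in both were the non-canonical subunits NFKB2 and RELB and the brakes NFKBIA, NFKBIE and TNFAIP3, and the gene that rose with the combination was NFKBIZ. The test was edgeR's quasi-likelihood test on the counts, with Benjamini-Hochberg adjusted p under 0.05 over the 22831 genes tested. With chaetocin 24.5% of all genes tested were called, 12.6% higher and 11.9% lower, and with the combination 38.5%, 20.1% higher and 18.3% lower. The median log2 fold change of the members was -0.35 with chaetocin and -0.29 with the combination, beside 0.01 and 0.02 over all genes tested. Both comparisons use the same vehicle libraries, so their calls are not independent of each other.

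**Figure D2:**
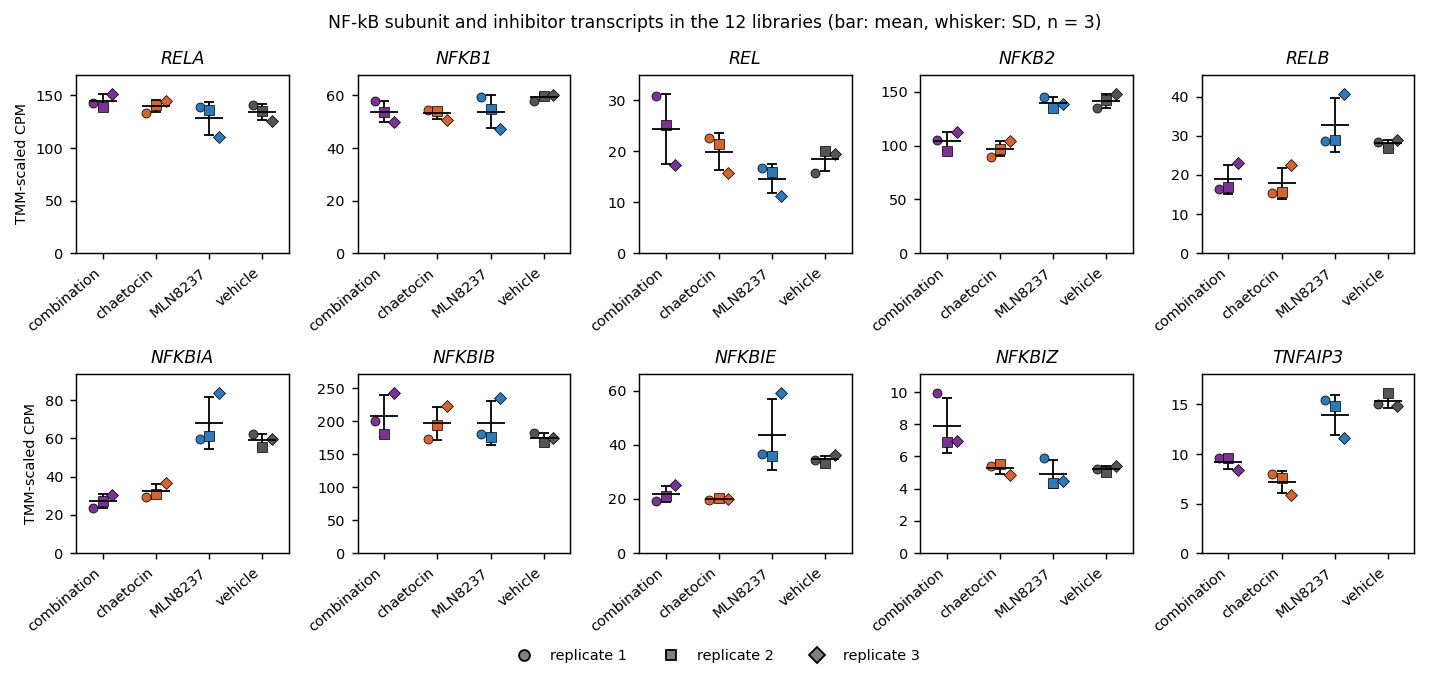
TMM-scaled CPM of each gene in the 12 libraries, by group, with mean and SD as bar and whisker and the replicate number as the symbol; each panel has its own axis from 0. For NFKB2, RELB, NFKBIA, NFKBIE and TNFAIP3 every combination and chaetocin library lies below every vehicle library, and for NFKBIZ the combination libraries lie above.

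Among the canonical subunits none passed the test against vehicle in any group. RELA (ENSG00000173039, hg19 chr11:65421067-65430565) encodes p65, the subunit with the main activation domain. It had 143, 139 and 152 CPM in the combination, 134, 141 and 145 CPM with chaetocin, 139, 136 and 110 CPM with MLN8237, and 141, 136 and 126 CPM in vehicle. Every treated group overlapped vehicle, and MLN8237 replicate 3 was the lowest library. The log2 fold change was 0.11 ± 0.10 (SE, as for all fold changes below) with the combination (adjusted p = 0.404) and 0.06 ± 0.10 with chaetocin (adjusted p = 0.69).

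NFKB1 (ENSG00000109320, hg19 chr4:103422486-103538459) encodes p105, the precursor of p50. It had 57.8, 53.7 and 49.8 CPM in the combination, 54.5, 54.3 and 50.7 CPM with chaetocin, 59.6, 54.7 and 47.2 CPM with MLN8237, and 57.9, 59.9 and 60.3 CPM in vehicle. All libraries of both chaetocin-containing groups lay below the vehicle libraries, by a narrow margin, with log2 fold changes of -0.14 ± 0.09 (adjusted p = 0.261) in the combination and -0.16 ± 0.09 (adjusted p = 0.254) with chaetocin. Groups that did not overlap were common: 54.8% of all genes tested in the combination against vehicle and 48% with chaetocin.

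REL (ENSG00000162924, hg19 chr2:61108656-61158745) encodes c-Rel, best known from lymphocytes. Its levels were 31.0, 25.1 and 17.3 CPM in the combination, 22.7, 21.4 and 15.9 CPM with chaetocin, 16.7, 15.9 and 11.3 CPM with MLN8237, and 15.8, 20.1 and 19.4 CPM in vehicle. Replicate 3 was the lowest library in each of the treated groups, and the combination overlapped vehicle. The log2 fold change of 0.41 ± 0.21 with the combination missed the threshold (adjusted p = 0.143). It passed without combination replicate 3 (0.60, adjusted p = 0.0298), without the 3 treated libraries numbered 3 (0.62, adjusted p = 0.000423) and with offsets for the length trend (0.46, adjusted p = 0.0214, where the median of all genes was itself 0.12). REL shares 5702 bases with RP11-373L24.1, which averaged 15.5 CPM in the combination and 13.1 CPM in vehicle, and use of strand in the counting is not stated in the sources read.

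Both non-canonical subunits fell. NFKB2 (ENSG00000077150, hg19 chr10:104153867-104162281) encodes p100, which is the precursor of p52 and itself acts as an inhibitor. It had 105, 95.2 and 112 CPM in the combination, 89.8, 97.3 and 104 CPM with chaetocin, 145, 135 and 139 CPM with MLN8237, and 135, 142 and 148 CPM in vehicle. No library of the combination or of chaetocin reached the lowest vehicle library. Its level was 1.36-fold lower in the combination than in vehicle (log2 fold change -0.44 ± 0.09, adjusted p = 0.00165) and 1.46-fold lower with chaetocin (-0.55 ± 0.09, adjusted p = 0.00083).

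RELB (ENSG00000104856, hg19 chr19:45504688-45541452) encodes the usual partner of p52. It had 16.5, 17.0 and 23.1 CPM in the combination, 15.5, 15.7 and 22.5 CPM with chaetocin, 28.8, 28.9 and 40.8 CPM with MLN8237, and 28.4, 27.0 and 28.8 CPM in vehicle. Replicate 3 was the highest library in each treated group, yet the combination and chaetocin libraries stayed below vehicle. The log2 fold change was -0.57 ± 0.18 in the combination (adjusted p = 0.0221) and -0.65 ± 0.18 with chaetocin (adjusted p = 0.0178). The combination's call was lost without combination replicate 1 (-0.48, adjusted p = 0.101), combination replicate 2 (-0.52, adjusted p = 0.0695), vehicle replicate 1 (-0.58, adjusted p = 0.0518) or vehicle replicate 3 (-0.57, adjusted p = 0.0535), and chaetocin's without chaetocin replicate 1 (-0.56, adjusted p = 0.0687), chaetocin replicate 2 (-0.57, adjusted p = 0.0809) or vehicle replicate 3 (-0.64, adjusted p = 0.0528).

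**Figure D3:**
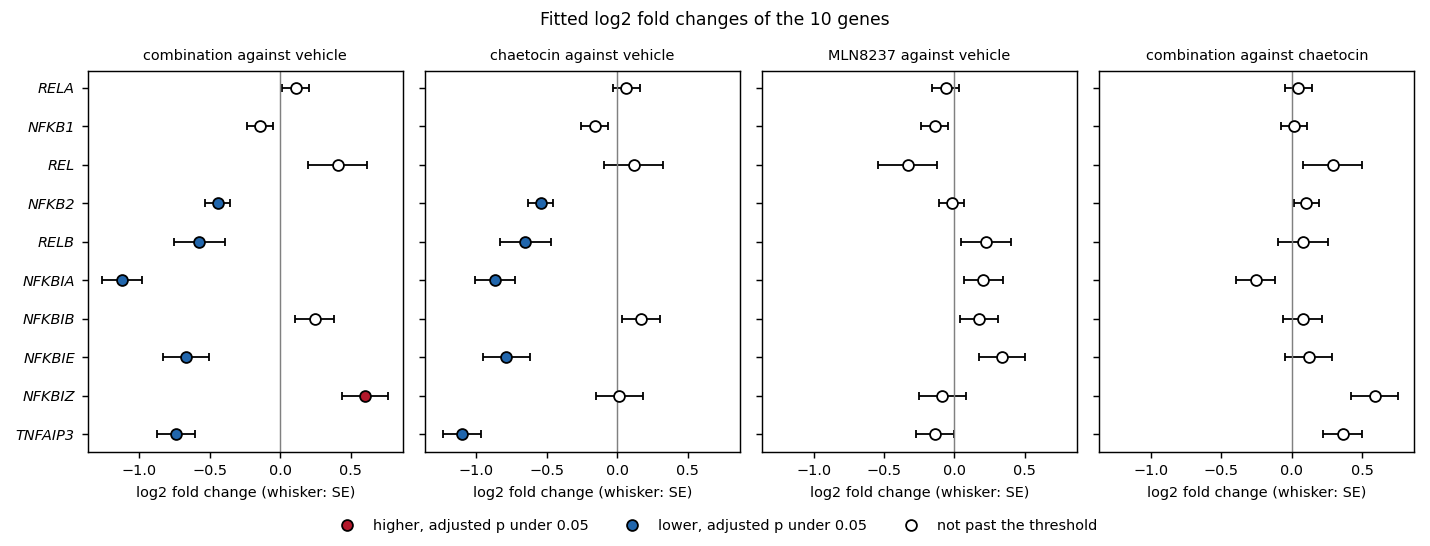
Log2 fold changes from the fit over all 12 libraries, with their SE, for the 10 genes in 4 comparisons; red and blue mark genes called higher and lower at adjusted p under 0.05. NFKB2, RELB, NFKBIA, NFKBIE and TNFAIP3 are called lower in the combination and with chaetocin, NFKBIZ is called higher in the combination, and no gene is called with MLN8237 or between the combination and chaetocin.

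Of the 3 cytoplasmic IkB genes, NFKBIA and NFKBIE fell and NFKBIB did not pass the test. NFKBIA (ENSG00000100906, hg19 chr14:35870717-35873955) encodes IkB alpha, the inhibitor that is rapidly degraded on signalling and resynthesised as an NF-kB target. It had 23.4, 27.3 and 30.6 CPM in the combination, 29.6, 31.1 and 36.4 CPM with chaetocin, 59.6, 61.1 and 83.5 CPM with MLN8237, and 62.1, 55.4 and 59.7 CPM in vehicle. The lowest vehicle library stood above every library of the combination and of chaetocin. The level was 2.18-fold lower in the combination than in vehicle (-1.12 ± 0.14, adjusted p = 7.2e-05) and 1.83-fold lower with chaetocin (-0.87 ± 0.14, adjusted p = 0.000832).

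NFKBIE (ENSG00000146232, hg19 chr6:44225903-44233500) encodes IkB epsilon, an inducible inhibitor that acts more slowly. It had 19.4, 20.9 and 25.01 CPM in the combination, 19.7, 20.3 and 20.1 CPM with chaetocin, 36.5, 35.8 and 58.9 CPM with MLN8237, and 34.3, 33.4 and 36.2 CPM in vehicle. The chaetocin libraries lay close together, and both chaetocin-containing groups were clear of vehicle. The level was 1.59-fold lower in the combination (-0.67 ± 0.17, adjusted p = 0.00627) and 1.73-fold lower with chaetocin (-0.79 ± 0.17, adjusted p = 0.00417).

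NFKBIB (ENSG00000104825, hg19 chr19:39390340-39399533) encodes IkB beta, which is not a typical NF-kB target. It had 200.2, 180 and 242 CPM in the combination, 173, 194 and 222 CPM with chaetocin, 181, 176 and 235 CPM with MLN8237, and 182, 168 and 174 CPM in vehicle. The highest library of each treated group was replicate 3, and every treated group overlapped vehicle. The log2 fold change was 0.25 ± 0.14 in the combination (adjusted p = 0.18) and 0.17 ± 0.14 with chaetocin (adjusted p = 0.422). With length-trend offsets the combination was called (0.34, adjusted p = 0.00903). NFKBIB shares 163 bases with SIRT2, which averaged 125 CPM in the combination and 156 CPM in vehicle. The part of reads shared with SIRT2 was not tested.

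NFKBIZ (ENSG00000144802, hg19 chr3:101546835-101579866) encodes IkB zeta, a nuclear IkB protein that helps p50 activate a subset of secondary target genes. It had 9.91, 6.89 and 6.96 CPM in the combination, 5.40, 5.55 and 4.85 CPM with chaetocin, 5.88, 4.34 and 4.50 CPM with MLN8237, and 5.199, 5.05 and 5.38 CPM in vehicle. The combination libraries were the 3 highest of the 12, and combination replicate 1 stood above the other two. The level was 1.52-fold higher in the combination than in vehicle (0.60 ± 0.17, adjusted p = 0.0112) and was 0.01 ± 0.17 on the log2 scale with chaetocin (adjusted p = 0.963). Without combination replicate 1 the combination's log2 fold change was 0.42 and missed the threshold (adjusted p = 0.0628). NFKBIZ shares 239 bases with NXPE3. That gene averaged 57.0 CPM in the combination, 65.8 CPM with chaetocin, 66.0 CPM with MLN8237 and 69.0 CPM in vehicle. The part of reads shared with NXPE3 was not tested.

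TNFAIP3 (ENSG00000118503, hg19 chr6:138188351-138204449) encodes A20, a ubiquitin-editing enzyme that shuts down signalling upstream of the IkB kinases and is itself an NF-kB target. It had 9.56, 9.60 and 8.42 CPM in the combination, 7.95, 7.59 and 5.91 CPM with chaetocin, 15.4, 14.8 and 11.6 CPM with MLN8237, and 15.1, 16.1 and 14.9 CPM in vehicle. The chaetocin libraries were the 3 lowest, the combination libraries came next, and neither group reached vehicle. The level was 1.67-fold lower in the combination (-0.74 ± 0.14, adjusted p = 0.000984) and 2.15-fold lower with chaetocin (-1.10 ± 0.14, adjusted p = 0.000143). TNFAIP3 shares 1020 bases with RP11-356I2.4, which averaged 3.16 CPM in the combination, 1.899 CPM with chaetocin, 0.480 CPM with MLN8237 and 0.385 CPM in vehicle. Relative to vehicle, both chaetocin-containing groups thus had more RP11-356I2.4 and less TNFAIP3, whereas both genes were higher in the combination than with chaetocin. The part of shared reads was not tested.

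MLN8237 alone called none of the 10 genes, and none had an unadjusted p under 0.05. Over all genes tested, 0.00438% were called, which is 1 gene, and 8.49% had an unadjusted p under 0.05; limma-voom and DESeq2 also called 0 members. The member with the smallest p was NFKBIE, at a log2 fold change of 0.34 ± 0.16 (adjusted p = 0.516), and REL had -0.33 ± 0.21 (adjusted p = 0.516). Every member overlapped vehicle, while 14% of all genes tested did not. MLN8237 replicate 3 held the group's highest value of RELB, NFKBIA, NFKBIB and NFKBIE, which are 2324 to 3031 bases long, and its lowest value of RELA, NFKB1, REL and TNFAIP3, which are 5023 to 11255 bases long. NFKBIZ, 5902 bases long, was lowest in replicate 2.

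**Figure D4:**
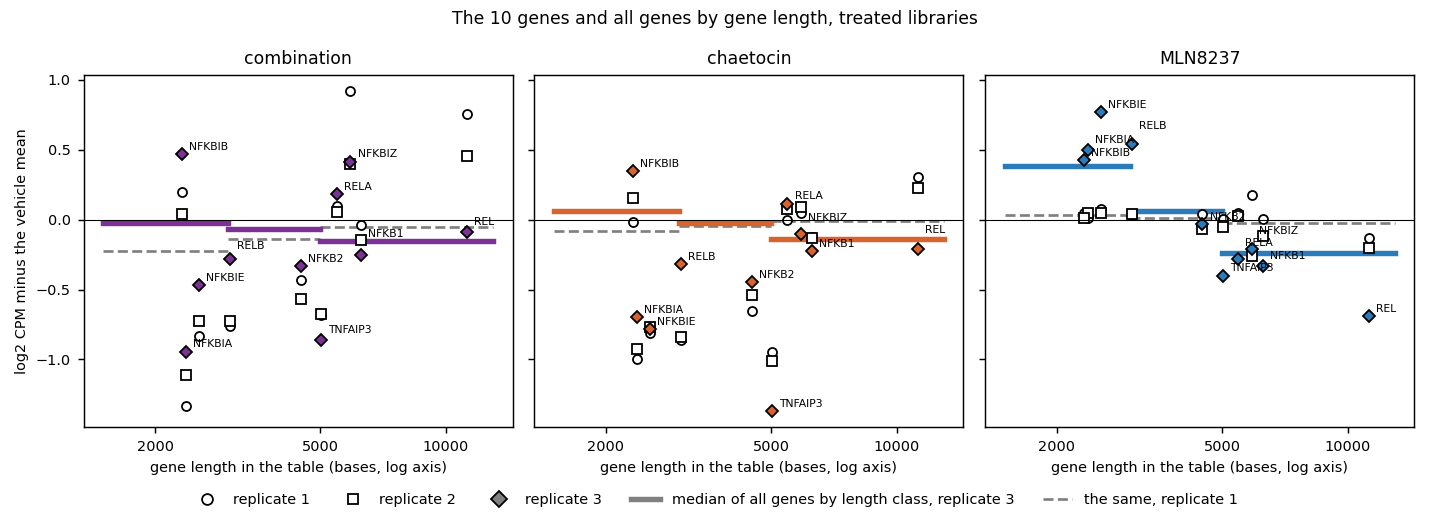
Log2 difference of each treated library from the vehicle mean (y axis) against gene length in the table (bases, log axis) for the 10 genes, in a panel per treated group; thick and dashed lines give the median of all genes in 3 length classes for replicates 3 and 1. In MLN8237 replicate 3 the medians run from 0.39 in the shortest class to -0.24 in the longest, and the members of that library run the same way.

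Adding MLN8237 to chaetocin gave no called member, and 0% of all genes tested were called in this comparison by edgeR. At an unadjusted p under 0.05 there were 2 members, beside 11.7% of all genes tested. These were NFKBIZ, with a log2 fold change of 0.59 ± 0.17 over chaetocin (adjusted p = 0.23 by edgeR), and TNFAIP3, with 0.36 ± 0.14 (adjusted p = 0.342). They were also the members whose combination and chaetocin libraries did not overlap, as 18.7% of all genes tested did not. NFKBIA lay in the other direction, at -0.26 ± 0.14 (adjusted p = 0.507), with overlapping libraries. DESeq2 called NFKBIZ (adjusted p = 0.048, over the other alternatives up to 0.891) and limma-voom called none. In simulated counts for chaetocin against vehicle 18.6% of DESeq2's calls were false, against 4.05% of edgeR's. That simulation changed 200 genes and took its spread from edgeR's estimates. Its shares therefore cannot be carried over to the combination against chaetocin.

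Against MLN8237 alone, REL and NFKBIZ rose in the combination and NFKB2, RELB, NFKBIA, NFKBIE and TNFAIP3 fell, so that 7 of 10 members were called beside 45.9% of all genes tested, 23.3% higher and 22.7% lower. NFKBIA was 2.51-fold lower (-1.33 ± 0.14, adjusted p = 2.23e-05) and NFKBIE 2.01-fold lower (-1.01 ± 0.17, adjusted p = 0.000426). With each library left out in turn, log2 fold changes ran from -1.43 to -1.17 for NFKBIA and from -1.13 to -0.74 for NFKBIE. Both were higher in MLN8237 replicate 3 than in the other MLN8237 libraries, at 83.5 and 58.9 CPM. NFKBIZ was 1.61-fold higher (0.69 ± 0.17, adjusted p = 0.00471) and REL 1.67-fold higher (0.74 ± 0.21, adjusted p = 0.0119). The other called members were RELB (-0.80 ± 0.18, adjusted p = 0.00312), TNFAIP3 (-0.60 ± 0.14, adjusted p = 0.00328) and NFKB2 (-0.42 ± 0.09, adjusted p = 0.00195). The call of REL was lost without combination replicate 1 (0.53, adjusted p = 0.0705). RELA (0.17 ± 0.10, adjusted p = 0.164) passed under a stricter filter and with length-trend offsets, and NFKBIB with the offsets, under which the median of all genes was 0.17.

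Whether the response to both compounds departed from the sum of the single responses was tested as an interaction on the log2 scale. It called 0 members and 0% of all genes tested. At an unadjusted p under 0.05 there were 3 members, beside 13.6% of all genes tested. Their interaction terms were 0.67 ± 0.24 for NFKBIZ, 0.50 ± 0.19 for TNFAIP3 and -0.46 ± 0.20 for NFKBIA, each with adjusted p = 0.362 by edgeR. DESeq2 and limma-voom called none of the members either. The positive terms of NFKBIZ and TNFAIP3 mean a combination level above that sum, and the negative term of NFKBIA a level below it, none of them past the threshold. With 1 library left out at a time, the term of NFKBIZ ran from 0.47 to 0.82 and that of TNFAIP3 from 0.38 to 0.58. The term of NFKBIA ran from -0.56 to -0.30, and MLN8237 replicate 3 was its highest library, at 83.5 CPM.

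Outside the 10 members, 91 genes of the pathway were grouped into ligands and receptors, adaptors and kinases, other brakes, and target genes, and 79 of them were tested. The lists, like the members, were chosen with earlier results of these data known. Their shares beside those of all genes tested are therefore descriptions and not independent evidence. With the combination 17 rose and 29 fell, and with chaetocin 13 rose and 22 fell, by edgeR's quasi-likelihood test at adjusted p under 0.05; with MLN8237 none was called. As shares of the 79 genes, 21.5% rose and 36.7% fell with the combination, beside 20.1% and 18.3% of all genes tested, and 16.5% rose and 27.8% fell with chaetocin, beside 12.6% and 11.9%. The 12 genes without a test had at most 16 reads in any library, among them IL6, PTGS2, VCAM1 and SELE. The target genes held 12 of the 29 decreases in the combination and 12 of the 22 with chaetocin. Of the 24 target genes tested, 50% fell in each comparison, while 4 rose (16.7%) in the combination and 2 (8.33%) with chaetocin, with median log2 fold changes of -0.34 and -0.61.

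Among the target genes, PLAU, the urokinase-type plasminogen activator, had 140, 165 and 151 CPM in the combination, 159, 154 and 157 CPM with chaetocin, and 503, 492 and 511 CPM in vehicle. It was 3.31-fold lower in the combination (-1.73 ± 0.09, adjusted p = 2.94e-07) and 3.21-fold lower with chaetocin (-1.68 ± 0.09, adjusted p = 3.15e-07), and its groups were far apart. ICAM1, a leukocyte adhesion receptor, was 2.79-fold lower in the combination (-1.48 ± 0.09) and 3.19-fold lower with chaetocin (-1.68 ± 0.09). The chemokine CCL2 averaged 13.5 ± 2.30 CPM in the combination, 16.3 ± 2.48 CPM with chaetocin and 90.0 ± 14.0 CPM in vehicle. The membrane-bound chemokine CX3CL1 averaged 5.09 ± 1.84 CPM in the combination, 7.37 ± 0.823 CPM with chaetocin and 33.9 ± 4.89 CPM in vehicle. The adjusted p of these 3 genes by edgeR was at most 1.46e-05 in either comparison.

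Of the 17 ligands and receptors tested, 4 rose (23.5%) and 6 fell (35.3%) in the combination, beside 20.1% and 18.3% of all genes tested. With chaetocin 3 rose (17.6%) and 4 fell (23.5%), beside 12.6% and 11.9%. LTB, the lymphotoxin beta chain that signals to the non-canonical branch, averaged 0.173 ± 0.0288 CPM in the combination, 0.104 ± 0.0303 CPM with chaetocin and 2.57 ± 0.850 CPM in vehicle. IL1A, the interleukin-1 alpha ligand, averaged 0.937 ± 0.292 CPM in the combination, 0.591 ± 0.111 CPM with chaetocin and 0.169 ± 0.0254 CPM in vehicle, and was called higher in both. The tumour necrosis factor receptors TNFRSF1B (-0.99 ± 0.11 and -1.01 ± 0.11) and TNFRSF1A (-0.53 ± 0.08 and -0.25 ± 0.08) and the RANK receptor TNFRSF11A (-0.59 ± 0.11 and -0.48 ± 0.11) fell in the combination and with chaetocin. The receptor IL1R1, outside the naming rule given below, rose in both (0.66 ± 0.12 and 0.47 ± 0.12). The other genes that rose in the combination, LTA, TNFSF13B and IL1A, averaged at most 0.937 CPM in any group.

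Of the 24 adaptors and kinases, 4 rose (16.7%) and 7 fell (29.2%) in the combination, and 4 rose (16.7%) and 3 fell (12.5%) with chaetocin. All genes tested gave 20.1% and 18.3% in the combination and 12.6% and 11.9% with chaetocin, so that the chaetocin decreases in this list were at the background share. MAP3K14, the kinase NIK that starts non-canonical signalling, averaged 64.1 ± 6.79 CPM in the combination, 68.1 ± 1.08 CPM with chaetocin and 115 ± 6.05 CPM in vehicle, and fell in both (adjusted p = 5.24e-05 and 0.000231, edgeR). BIRC2, a ubiquitin ligase that keeps MAP3K14 low, fell by 0.56 on the log2 scale in the combination and by 0.57 with chaetocin, and TAB1, a partner of the kinase TAK1, fell by 0.96 and by 0.73. IRAK4, a kinase of interleukin-1 receptor signalling, rose (0.79 ± 0.11 in the combination and 0.37 ± 0.11 with chaetocin). IKBKG, the regulatory subunit of the IkB kinase complex, rose by 0.34 and 0.36, but it has a near-identical copy and overlaps another gene, so its reads are uncertain.

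Of the 14 other brakes, 5 rose and 4 fell in the combination, and 4 rose and 3 fell with chaetocin. These are 35.7% and 28.6% of the list in the combination, beside 20.1% and 18.3% of all genes tested, and 28.6% and 21.4% with chaetocin, beside 12.6% and 11.9%. CYLD, a deubiquitinase that counters signalling, fell (-0.84 ± 0.12 in the combination and -0.86 ± 0.12 with chaetocin), as did TNIP1, a partner of A20 (-0.39 ± 0.08 and -0.31 ± 0.08), and PDLIM2, which promotes turnover of nuclear p65 (-0.78 ± 0.16 and -0.56 ± 0.16). NFKBID, another nuclear IkB protein, rose (0.82 ± 0.14 and 0.56 ± 0.14), as did FAM105B, the deubiquitinase OTULIN (0.38 ± 0.09 and 0.43 ± 0.09).

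**Figure D5:**
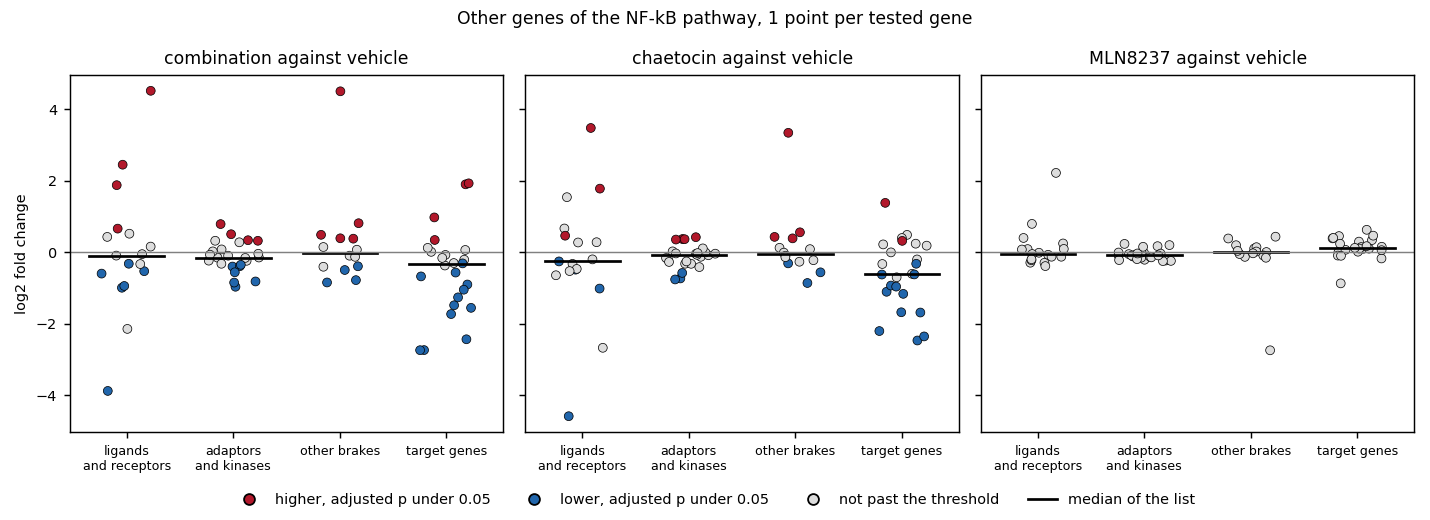
Log2 fold change of each tested pathway gene outside the 10 members, by list, in 3 comparisons with vehicle; the bar is the median of the list, and red and blue mark genes called higher and lower at adjusted p under 0.05. Target genes called lower number 12 in the combination and 12 with chaetocin, none is called with MLN8237, and the highest points, LTA and TNIP3, had at most 0.476 CPM in any library.

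The profiles of the members over the 12 libraries, as log2 CPM relative to the vehicle mean, were compared by their root mean square difference, as a description. Among the members, RELB and NFKBIE were the most alike pair (0.16), and REL and NFKBIA the least alike (1.02). Of 12593 other genes of at least 5 CPM on average, the nearest to NFKB2 was DYX1C1-CCPG1 (0.07), to RELB FOXH1 (0.10), to NFKBIA SYNGR2 (0.07), to NFKBIE H2AFJ (0.06), to TNFAIP3 MAN2A1 (0.14) and to NFKBIZ SNX29 (0.13). The libraries of these genes are the same ones, so likeness includes whatever the libraries share, gene length trends among it.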

How the data were processed

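PANC-1 RNA was sequenced in 12 libraries, 3 per group. The authors deposited 1 table of raw read counts per gene, not normalized, and RPKM values scaled by the authors to library size and length, per the file headers, with gene lengths and hg19 positions. Per the submitters' processing notes, the tools were CASAVA 1.9, TopHat 12.0.6 and HTSeq with hg19, in roles not given. The counts are whole numbers summing to 49439795 to 63747510 per library, so that the member with the fewest reads in a library had 205. The members and gene lists were chosen with earlier results of these data known.

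Counts were fitted with edgeR 4.0.16 (R 4.3.3): filterByExpr, TMM, robust glmQLFit with 4 group means, glmQLFTest, Benjamini-Hochberg over 22831 genes, threshold 0.05. CPM and RPKM printed here are TMM-scaled values computed from the counts, except the CPM of the cell type markers, which were scaled to the library total alone. The deposited RPKM were used only to check the scaling of the RPKM. On simulated counts (chaetocin against vehicle, 200 genes changed by a log2 of 1, spread as estimated by edgeR) edgeR recovered 83.0% with 4.05% false calls. No pair of libraries was a duplicate. Named genes were all 10 members, up to 4 genes per list and comparison with vehicle with the smallest p among those called, and the nearest profiles. Alternatives were RLE scaling, no filter, a stricter filter, DESeq2 1.42.0, limma-voom (limma 3.58.1), only the groups compared, a replicate block, the libraries numbered 3 left out, each library left out and, chosen after seeing the data, length-trend offsets and a replicate block within the 9 treated libraries. Between treated groups, all 9 same-number correlations of deviations from the group means (0.17 to 0.85) exceeded 0.1. Their numbers were therefore taken to pair them, from the data and not from the labels. With vehicle only 4 of 9 exceeded 0.1. By mean correlation with the other groups, vehicle included, 6 of the 12 libraries matched their own replicate number best.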

Additional observations from a re-analysis of the deposited data

How the results depend on the processing

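In the comparisons of the combination and of chaetocin with vehicle, NFKB2, NFKBIA, NFKBIE and TNFAIP3 kept their calls and directions under all 21 alternatives, and no called member reversed or moved by over 1.5 times. The exceptions for RELB, NFKBIZ, REL, RELA and NFKBIB stand beside their values, and the cause of those changes was not tested. DESeq2 called 1 member between the combination and chaetocin, where edgeR called 0, and over all genes it called 296 there and 15 for the interaction, against 0 and 0. Leaving out each library in turn, the members called ranged from 4 to 7 for the combination against vehicle, 4 to 5 for chaetocin, 6 to 7 for the combination against MLN8237 and 0 to 0 for MLN8237 against vehicle, the combination against chaetocin and the interaction. The pathway genes called ranged from 39 to 51 with the combination, 27 to 42 with chaetocin and 0 to 0 with MLN8237. Length-trend offsets moved the median log2 fold change of all genes to 0.12 for the combination against vehicle and 0.17 against MLN8237; the members called became 3 higher and 5 lower, and 4 higher and 5 lower, and all genes called in the second became 7056 higher and 4179 lower, against 5310 and 5177. Without a filter these medians were 0.11 and 0.15. Over all genes, chaetocin against vehicle gave 3704 calls without vehicle replicate 2, against 5591, and the combination against chaetocin 573 without combination replicate 2. Same-number correlations with vehicle ran from -0.52 to 0.53, so comparisons with vehicle are not paired. With the replicate block the members called were 5 for chaetocin, 0 for MLN8237 and 6 for the combination against vehicle, 0 for the combination against chaetocin, 7 against MLN8237 and 0 for the interaction; within the 9 treated libraries the block also gave 0 and 7, and neither block changed the call of a member. With 3 libraries per group, smaller differences could not be shown at this spread.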
